A study of Saccharomyces cerevisiae with 18 samples.

Results

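The heat response of budding yeast (Saccharomyces cerevisiae) was compared between cells whose histone H2A carries S121A, where alanine replaces a serine in the C-terminal tail, and wild-type (WT) cells. The quantity described for each gene is the response difference: the log2 change from no stress to heat in S121A minus the same change in WT. It draws on 12 of the 18 libraries of the series, 3 in each of 4 groups, and was tested for 6353 of the 6746 features in the count table. The groups are S121A after 10 min at 39 °C, S121A without stress at 30 °C, WT after 10 min at 39 °C and WT without stress at 30 °C, all from log-phase cultures in rich (YPD) medium. Per the labels, every group is MATa, background FY406, with LEU2 in place of the chromosomal hta1-htb1 and TRP1 in place of hta2-htb2. All also carry leu2delta1, his3delta200, lys2-128delta, ura3-52 and trp1delta63. Per those labels the H2A and H2B of the cells come from a plasmid with HTA1-HTB1, altered at S121A or unchanged (wt), so both genotypes depend on plasmid-borne histones. The same labels spell the plasmid marker HIS3, HIS4 and HIS5 for replicates 1, 2 and 3 of each group. The libraries are poly(A)-selected RNA from whole cells, and nothing in the labels says whether the 3 replicates were separate cultures. The p-values therefore measure the spread between these libraries, which may be technical.

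A short heat shock reshapes yeast transcription in both directions. The heat shock factor Hsf1 drives chaperone genes, the zinc-finger factors Msn2 and Msn4 drive a broad set of general stress genes, and the genes that build and feed ribosomes are shut off. H2A wraps DNA together with the other core histones, and the serine changed here is known in yeast as a target of the checkpoint kinase Bub1, which helps recruit shugoshin to centromeres. A positive response difference can mean a stronger rise or a weaker fall in S121A, and a negative one a weaker rise or a stronger fall. For that reason the genes described in full have their levels at both ends, with heat and without.

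Total counts were 39.6 to 53.03 M (mega) per library, and 3 counts corresponded to 0.0566 to 0.0758 counts per M (CPM). Genes under 1 CPM after heat, such as ROK1 and SYO1 in WT, rest on few counts. The 10 most abundant genes took 18.3% to 22.4% of the counts in heated libraries and 14.0% to 15.9% in unstressed ones. Heated libraries also varied more around their group means: the SD of the log2 deviations was 0.0939 to 0.181 with heat and 0.0684 to 0.0782 without. S121A heat replicate 3 and WT heat replicate 1 stood farthest from their groups, at 0.181 and 0.179. The 6 MATa markers (MFA1, MFA2, STE2, STE6, BAR1 and AGA2) summed to 512.2 to 553.3 CPM in heated S121A and 2211 to 2433 CPM in unstressed S121A, against 423.2 to 496.8 CPM in heated WT and 2831 to 2890 CPM in unstressed WT. The labelled mating type was thus present in every library. The MATalpha markers MF(ALPHA)1, MF(ALPHA)2, STE3 and SAG1 summed to at most 103.6 CPM in any library.

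The targeted gene and the markers came first. HTA1, the plasmid gene that carries the mutation, had 1494, 1412 and 1510 CPM in heated S121A and 1084, 1055 and 1148 CPM in unstressed S121A, against 1708, 1698 and 1553 CPM in heated WT and 1022, 938 and 1043 CPM in unstressed WT. Its response difference was -0.30 ± 0.10 (log2, SE, 3 libraries per group) and missed the threshold (adjusted p = 0.0564). Gene-level counts carry no codon information, so this is no check of the genotype labels. HTA2, labelled as replaced, still had 11.90, 12.34 and 12.01 CPM in heated S121A and 22.2, 22.3 and 20.8 CPM in unstressed S121A, against 11.3, 14.1 and 13.7 CPM in heated WT and 20.5, 18.3 and 19.2 CPM in unstressed WT. HTB2, labelled as replaced too, had 51.7, 55.2 and 54.0 CPM in heated S121A and 28.5, 27.6 and 27.9 CPM in unstressed S121A, against 57.5, 44.5 and 40.6 CPM in heated WT and 29.9, 31.1 and 26.8 CPM in unstressed WT. HTA1 and HTB1 are close paralogs of these genes, and whether their reads were counted here was not tested. HIS3 RNA was present in all 12 libraries, whichever marker the label spells. HIS3 had 652, 610 and 784 CPM in heated S121A and 562, 491 and 588 CPM in unstressed S121A, against 944, 783 and 818 CPM in heated WT and 1107, 1031 and 1052 CPM in unstressed WT. Without stress all S121A libraries were below all WT libraries, while with heat the groups overlapped narrowly, and the response difference was 0.65 ± 0.14 (adjusted p = 0.00587). LEU2 had a difference of 0.46 ± 0.13 (adjusted p = 0.0191), and its call held in 9 of the 12 fits with a library left out. TRP1 at 0.14 ± 0.11, LYS2 at -0.21 ± 0.10 and URA3 at -0.76 ± 0.31 did not pass.

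Of the genes tested, 892 had a positive response difference and 410 a negative one in edgeR's quasi-likelihood test (Benjamini-Hochberg adjusted p under 0.05, two-sided). These are 14.0% and 6.45% of all genes, the background for every count of positive and negative calls that follows. At 2-fold or more there were 155 and 49. When each of the 12 libraries was left out in turn, 549 of the positive and 176 of the negative calls held in every fit. The split of the calls rests on the scaling: with library totals alone, in place of the TMM factors used here, 501 differences were positive and 899 negative, and the median over all genes moved to -0.17, against 0.04 with TMM. Between those scalings every gene is shifted by about that gap, and list medians stand against 0.04 for all genes. With library totals alone the median changed sign in 11 of the 47 gene lists examined, and the larger of the positive and negative counts changed sides in 8: the G1/S, G2/M, Hsp70 and Hsp110, mitochondrial chaperone, osmotic stress, mating, ribosome regulator and zinc lists. Leaving out WT heat replicate 1 raised the counts to 1447 and 929. Without S121A no stress replicate 2 they were 573 and 196, and without WT no stress replicate 1 they were 591 and 237. The negative count was 208 without WT heat replicate 2, 244 without WT heat replicate 3 and 228 without WT no stress replicate 2.

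Most positive differences lay in genes that heat turned down, and most negative ones in genes that heat turned up. Of the 892 positive differences, 659 belonged to genes with a negative log2 response in both genotypes, 156 to genes with a positive one in both and 77 to genes with opposite signs. Of the 410 negative differences, 264 belonged to genes with a positive response in both, 51 to genes with a negative one in both and 95 to genes with opposite signs. Heat itself moved most genes: 39.0% rose and 41.5% fell in S121A, and 39.4% rose and 40.6% fell in WT.

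**Figure D1:**
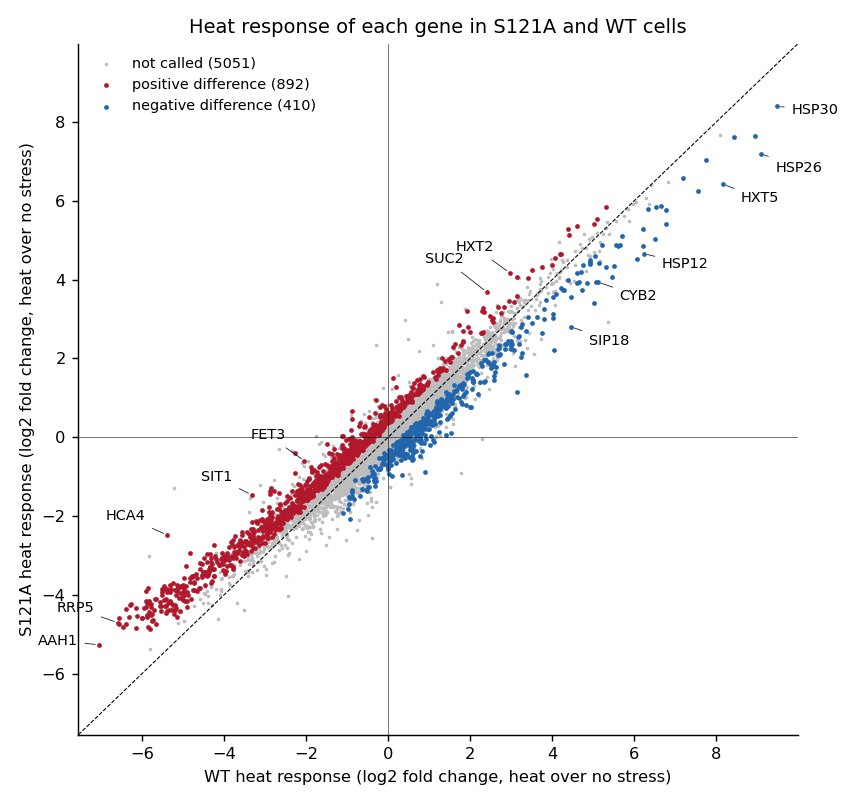
Log2 heat response (heat over no stress) of each of 6353 genes in S121A (vertical axis) and in WT (horizontal axis), with the line of equal response dashed. Genes with a positive difference (892) lie above the line, most of them among the genes that fell, and genes with a negative difference (410) lie below it, most of them among the genes that rose.

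The gap widened with the depth of repression. Genes were binned by the mean of the 2 genotypes' log2 responses, a measure that gives each genotype the same weight. The 34 genes with a mean below -5 fell by a median of -4.55 in S121A and -5.91 in WT, and 33 of them (97.1%) had a positive difference. From -5 to -4, 82 of 104 genes (78.8%) did, from -4 to -3, 100 of 160 (62.5%), from -3 to -2, 141 of 332 (42.5%), and from -2 to -1, 163 of 741 (22.0%). Over all 1370 genes called as changed by heat on average and lower by at least 1 on the log2 scale, 519 had a positive and 11 a negative difference. Their median difference was 0.32, with median responses of -1.78 in S121A and -2.03 in WT.

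Induced genes mirrored this only in part. Over the 1184 genes called as changed by heat on average and higher by at least 1 on the log2 scale, 77 had a positive and 176 (14.9%) a negative difference. Their median difference was -0.03, with median responses of 1.68 in S121A and 1.75 in WT, and it was 0.02 without WT heat replicate 1 and -0.24 with library totals alone. The share of genes with a negative difference rose with the mean response. It was 69 of 723 genes (9.54%) from 1 to 2 and 16.3% from 2 to 3. From 3 to 4 it was 21.7%, from 4 to 5 it was 34.4%, and at 5 or more it was 23 of 45 (51.1%). The positive share rose as well, through 4.98%, 7.61%, 10.8% and 13.1% in the bins from 1 to 5, and was 6.67% above. The median difference stayed near 0 in the bins from 1 to 4, at -0.001, -0.054 and -0.003. It was -0.26 from 4 to 5 and -0.45 at 5 or more. The outermost bins differed in the end at which the median gap was larger. In the most repressed bin S121A exceeded WT by a median of 1.62 under heat and 0.11 without stress, while in the most induced bin S121A differed from WT by a median of -0.05 under heat and 0.31 without stress.

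**Figure D2:**
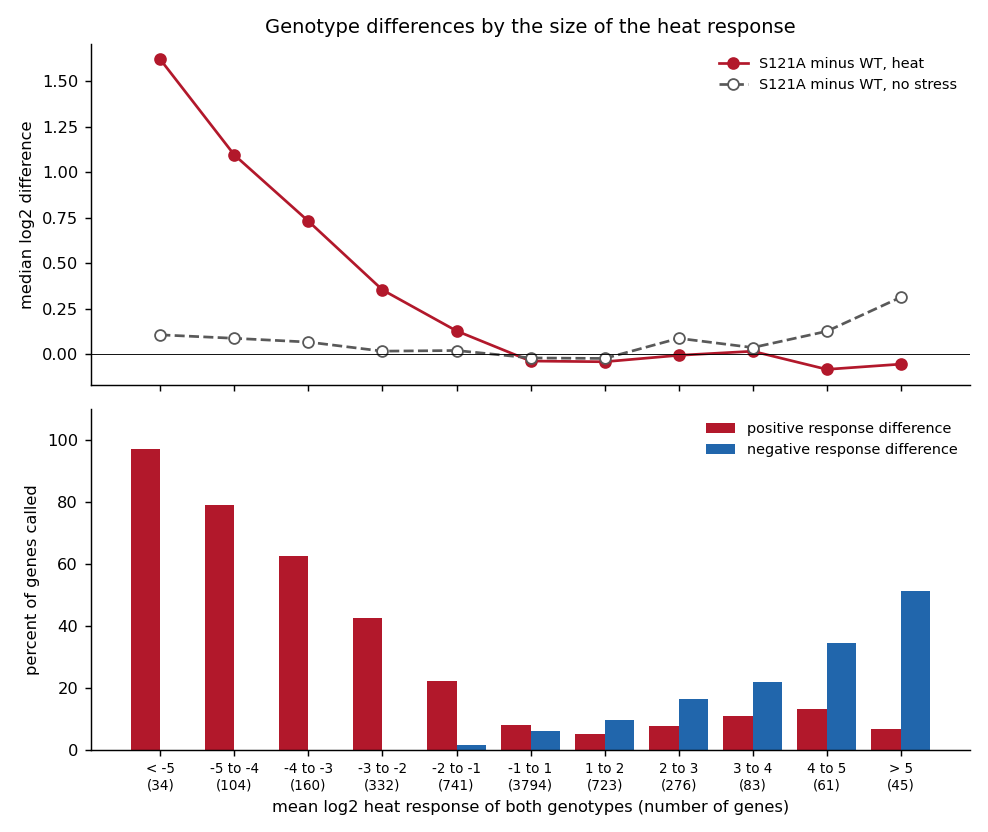
Upper panel: median log2 difference between S121A and WT under heat (filled) and without stress (open) for genes binned by the mean log2 heat response of both genotypes. Lower panel: the percent of genes in each bin with a positive or a negative response difference; the filled points climb to 1.62 on the repressed side, and the open points to 0.31 on the induced side.

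Gene by gene, most calls of either sign belonged to genes whose genotypes differed under heat. S121A was higher than WT under heat for 19.7% of all genes and lower for 11.9%, and without stress it was higher for 9.26% and lower for 9.87%. Among the 892 positive differences, 520 (58.3%) belonged to genes that differed between genotypes only with heat, 168 (18.8%) to genes that differed only without stress, 132 to genes that differed at both ends and 72 to genes that differed at neither. Among the 410 negative differences these counts were 230 (56.1%), 97 (23.7%), 44 and 39. The 264 genes with a negative difference that rose in both genotypes had a median gap of -0.33 with heat and 0.24 without stress; 160 were lower in S121A under heat and 111 higher in S121A without stress. Of the 50 largest positive differences, 49 had S121A higher under heat, and their median gap was 1.66 with heat and 0.02 without stress. Of the 50 largest negative differences, 33 had S121A higher without stress and 28 had S121A lower under heat, with medians of -0.46 with heat and 0.68 without stress.

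**Figure D3:**
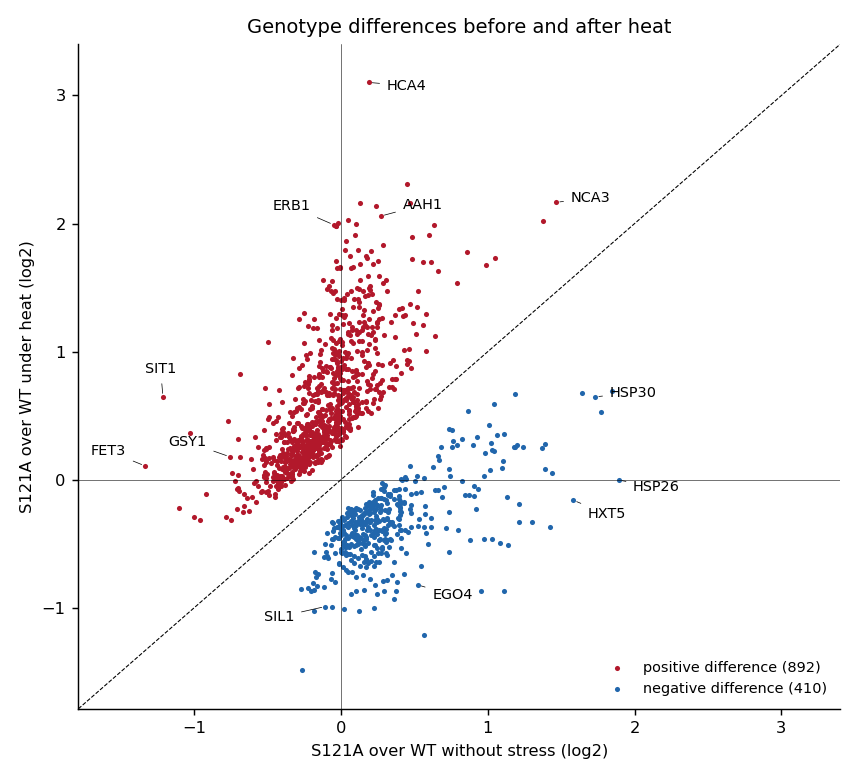
S121A over WT (log2) under heat (vertical axis) against S121A over WT without stress (horizontal axis) for the genes with a positive (892) or negative (410) response difference; the distance from the dashed line is that difference. HCA4 and ERB1 sit high near the centre, with a gap called only under heat. HSP26 and HXT5 sit far right near the horizontal axis, with a gap called only without stress.

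HCA4 stood apart from all other named genes. It encodes a DEAD-box RNA helicase needed to process the 18S ribosomal RNA precursor, and is also known as DBP4. HCA4 (YJL033W, chromosome X, 383837 to 386149 in R64) had 11.9, 11.2 and 10.8 CPM in heated S121A and 64.9, 63.1 and 61.2 CPM in unstressed S121A, against 1.42, 1.16 and 1.38 CPM in heated WT and 54.7, 54.4 and 56.7 CPM in unstressed WT. The heated groups were far apart and the unstressed ones close. Its response was -2.48 ± 0.07 in S121A and -5.39 ± 0.09 in WT, a difference of 2.91 ± 0.12 (adjusted p = 7.36e-10). Under heat S121A exceeded WT by 3.10 ± 0.10, while without stress the gap of 0.19 ± 0.07 did not pass (adjusted p = 0.0604). KAR2, which encodes the Hsp70 of the endoplasmic reticulum and was looked up after the values were seen because it neighbours HCA4, had a response difference of -0.09 ± 0.12, short of the threshold (adjusted p = 0.621).

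The next largest positive differences among the named genes were again in ribosome assembly genes. ERB1 and YTM1 encode partners in a complex that matures the large subunit. ERB1 had 5.50, 6.86 and 4.91 CPM in heated S121A and 110.7, 104.1 and 107.7 CPM in unstressed S121A, against 1.19, 1.18 and 1.92 CPM in heated WT and 111.8, 111.8 and 109.9 CPM in unstressed WT. The unstressed groups overlapped and the heated ones did not, for a difference of 2.04 ± 0.19 (adjusted p = 3.35e-06). YTM1 had 5.09, 6.77 and 5.82 CPM in heated S121A and 87.1, 80.1 and 85.4 CPM in unstressed S121A, against 1.1, 1.72 and 1.49 CPM in heated WT and 86.6, 88.6 and 80.8 CPM in unstressed WT, a difference of 2.02 ± 0.17. SYO1, which encodes a chaperone that brings ribosomal proteins into the nucleus, had 2.12, 2.51 and 2.03 CPM in heated S121A and 42.5, 46.9 and 46.5 CPM in unstressed S121A, against 0.378, 0.459 and 0.625 CPM in heated WT and 39.0, 44.4 and 40.8 CPM in unstressed WT. Its difference was 2.03 ± 0.20. In these 3 genes the test called no gap before heat, and every heated S121A library was above every heated WT library.

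Other assembly genes gave similar values. UTP14, which encodes a processome subunit, differed by 2.02 ± 0.22. ROK1, another DEAD-box helicase, differed by 1.97 ± 0.28, and RRP5, whose product acts in both subunits' processing, by 1.89 ± 0.13. DRS1, a large-subunit helicase gene, differed by 2.01 ± 0.16, LTV1, a small-subunit export factor gene, by 1.90 ± 0.16, and NOP13, a nucleolar RNA-binding protein gene, by 1.82 ± 0.19. The test called none of these 6 genes between genotypes without stress. SIT1, treated with iron below, and URA7 complete the 12 largest among the named genes. URA7, which encodes a CTP synthase, had 8.55, 8.35 and 9.90 CPM in heated S121A and 244, 235 and 233 CPM in unstressed S121A, against 2.53, 2.36 and 2.50 CPM in heated WT and 240, 232 and 225 CPM in unstressed WT. Its difference was 1.83 ± 0.12 (adjusted p = 2.84e-07).

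**Figure D4:**
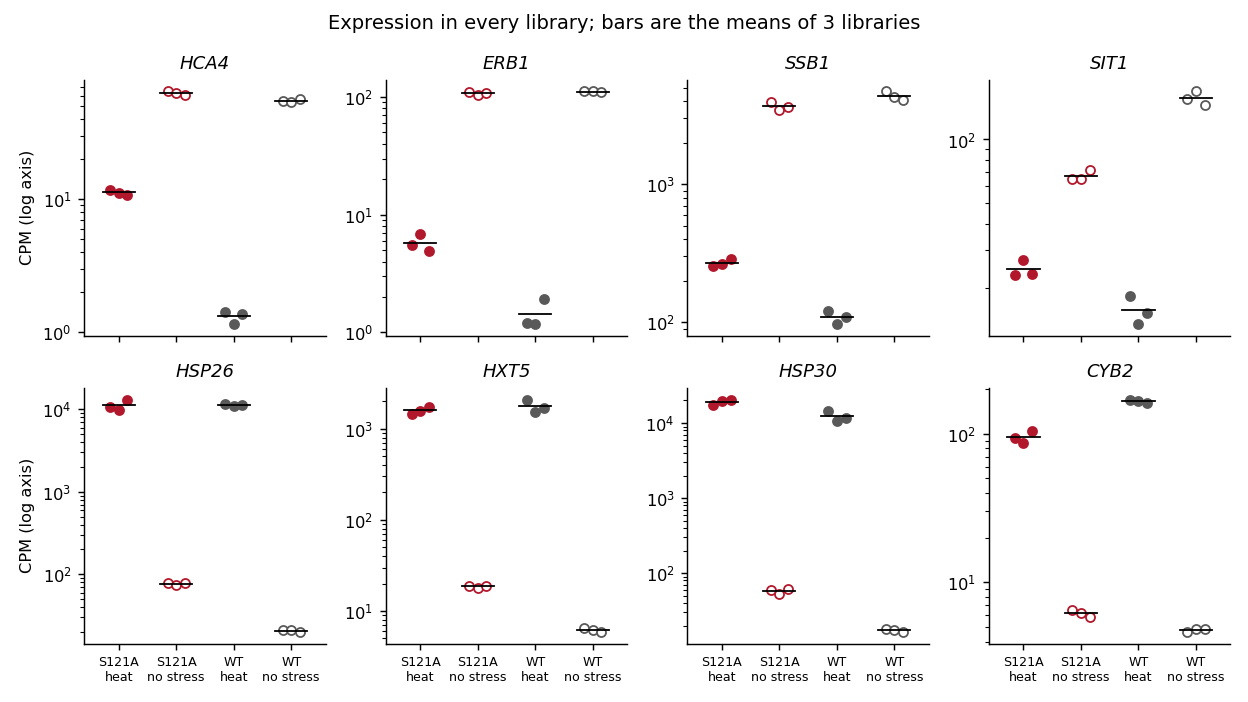
CPM (log axis) in each of 3 libraries per group for 8 genes; filled points are heated and open points unstressed libraries, red for S121A and grey for WT, and bars are means. HCA4, ERB1, SSB1 and SIT1 fell less in S121A. HSP26 and HXT5 started higher in S121A and reached about the WT level. HSP30 was higher in S121A at both ends, with the larger gap without stress, and CYB2 started higher in S121A and ended lower.

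As a group, ribosome assembly genes moved together. Of 52 genes for the small-subunit processome and snoRNA-bound proteins, which cut and modify the rRNA precursor, all fell in both genotypes, 43 had a positive difference and 1 a negative one. Their median difference was 1.05, with median responses of -3.79 in S121A and -5.0 in WT. Of 65 large-subunit assembly factors, all again fell in both genotypes, 54 had a positive difference and none a negative one, with a median difference of 0.98 and median responses of -3.93 in S121A and -5.15 in WT. The median of all genes was 0.04. Under heat S121A was higher for 48 of the 52 and 59 of the 65. Without stress it was higher for 6 in each list. With library totals alone the medians were 0.83 and 0.75. The single negative member, named after its value was seen, is RRP7 at -0.51 ± 0.17, a gene on chromosome III whose call held in 4 of the 12 fits with a library left out.

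The promoters of the 3 largest positive differences among the named genes are shown, chosen by the size of the difference, and they carry the same short elements. A pair of motifs known from the promoters of yeast ribosome assembly genes were searched on both strands of the 300 bases before each coding start: PAC and RRPE. PAC is spelled GATGAG, which reads on the other strand as CTCATC, and RRPE is spelled AAAAATTT, which reads on the other strand as AAATTTTT. Also searched in the same windows were the stress element CCCCT, which reads on the other strand as AGGGG, and a heat shock element core, GAANNTTC or TTCNNGAA. The stretches from 300 to 71 bases before the start follow (R64, reading toward the gene), with every motif match in capitals. HCA4 is at chrX:383537-383766 on the + strand, ERB1 at chrXIII:370588-370817 on the - strand and SYO1 at chrIV:340205-340434 on the - strand.
HCA4: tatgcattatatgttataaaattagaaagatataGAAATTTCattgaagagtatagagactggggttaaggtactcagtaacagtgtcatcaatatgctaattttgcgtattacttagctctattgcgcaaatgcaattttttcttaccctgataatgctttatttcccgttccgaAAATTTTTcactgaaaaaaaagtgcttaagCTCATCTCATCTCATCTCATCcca
ERB1: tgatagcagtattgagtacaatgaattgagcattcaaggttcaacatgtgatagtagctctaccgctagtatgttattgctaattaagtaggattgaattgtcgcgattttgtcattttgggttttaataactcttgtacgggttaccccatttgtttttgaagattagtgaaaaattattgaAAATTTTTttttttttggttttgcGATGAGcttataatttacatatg
SYO1: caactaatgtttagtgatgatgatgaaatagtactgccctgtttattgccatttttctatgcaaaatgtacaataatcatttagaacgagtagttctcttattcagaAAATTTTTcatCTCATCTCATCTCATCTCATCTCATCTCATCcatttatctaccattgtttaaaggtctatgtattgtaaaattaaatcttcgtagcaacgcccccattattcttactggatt

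HCA4 holds 4 overlapping PAC matches and 1 RRPE match, ERB1 holds 1 of each, and SYO1 holds 6 overlapping PAC matches and 1 RRPE match. HCA4 also holds 1 GAANNTTC match. Over 5839 protein-coding genes with a window, 335 (5.74%) held both PAC and RRPE. Both were in 168 of 877 windows of genes with a positive difference (19.2%), in 89 of the 149 with a positive difference of at least 1 (59.7%) and in 8 of 405 with a negative difference (1.98%). The 335 genes with both had a median response difference of 0.46, and 168 were positive. The 5504 without both had a median of 0.02, and 709 were positive. Within the assembly lists, 89 of 117 windows held both; the median difference was 1.08 for those and 0.85 for the other 28. PAC and RRPE were added after the values were seen, and a match is a string of letters, not a measured binding site.

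The polymerase that transcribes rRNA behaved unevenly across its subunits. Of 15 genes, for RNA polymerase I subunits and the initiation factor gene RRN3, 7 had a positive difference and none a negative one (median 0.43). With library totals alone 5 were positive and 2 negative (median 0.21). RPA190, the gene of the largest subunit, had 14.4, 16.1 and 12.1 CPM in heated S121A and 255, 250 and 249 CPM in unstressed S121A, against 4.74, 3.45 and 4.17 CPM in heated WT and 241, 255 and 244 CPM in unstressed WT. The difference was 1.77 ± 0.15, and RPA43 and RPA135, also subunit genes, differed by 1.67 ± 0.20 and 1.54 ± 0.14. Of 11 RNA polymerase III genes 4 were positive (median 0.31), led by RPC53 at 0.99 ± 0.18, and with library totals alone 1 was. Among 13 regulators of ribosome genes 2 were positive: TOD6, which encodes a repressor that binds PAC, at 1.04 ± 0.17 and the kinase gene SCH9 at 0.32 ± 0.10, whose call held in 3 of the 12 fits with a library left out. The median of that list was 0.14, and it was -0.07 with library totals alone.

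Ribosomal protein genes shared the direction but not the size. Of 137 cytosolic ribosomal protein genes 63 had a positive difference and none a negative one, with a median of 0.35, and S121A was higher under heat for 90 of them. The median response was -2.14 in S121A and -2.44 in WT, and with library totals alone the median difference was 0.13 and 38 were positive. RPS26B had 40.8, 40.0 and 47.9 CPM in heated S121A and 588, 572 and 618 CPM in unstressed S121A, against 12.3, 16.8 and 18.1 CPM in heated WT and 530, 458 and 577 CPM in unstressed WT, a difference of 1.26 ± 0.17. RPL4A and RPL4B both differed by 1.00, with SE of 0.15 and 0.16. Most ribosomal protein genes exist as near-identical pairs, RPL4A and RPL4B among them, and reads shared by a pair cannot be separated here. Of 33 translation factor genes 12 were positive (median 0.27), and YEF3, which encodes the fungal elongation factor, differed by 1.16 ± 0.12.

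Ribosome-bound chaperone genes fell with heat in both genotypes, and fell less in S121A. SSB1 and SSB2 encode near-identical Hsp70s that bind nascent chains, and their reads cannot be fully separated. SSB1 had 258, 266 and 287 CPM in heated S121A and 3927, 3464 and 3610 CPM in unstressed S121A, against 120.7, 97.4 and 110.2 CPM in heated WT and 4702, 4297 and 4069 CPM in unstressed WT. All heated S121A libraries were above all heated WT libraries, and the difference was 1.55 ± 0.13 (adjusted p = 1.56e-06). SSB2 differed by 1.37 ± 0.13. ZUO1 and SSZ1, whose products form the ribosome-associated complex that works with Ssb, differed by 1.44 ± 0.14 and 0.39 ± 0.10. The call of SSZ1 ended with library totals alone, without S121A no stress replicate 2 and without WT no stress replicate 1. SSB1, SSB2 and SSZ1 were the only positive members of the 9 in the Hsp70 and Hsp110 list, whose median was 0.09, and -0.12 with library totals alone. PPT1, which encodes a phosphatase of Hsp90, also fell less in S121A, by 0.98 ± 0.15.

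**Figure D5:**
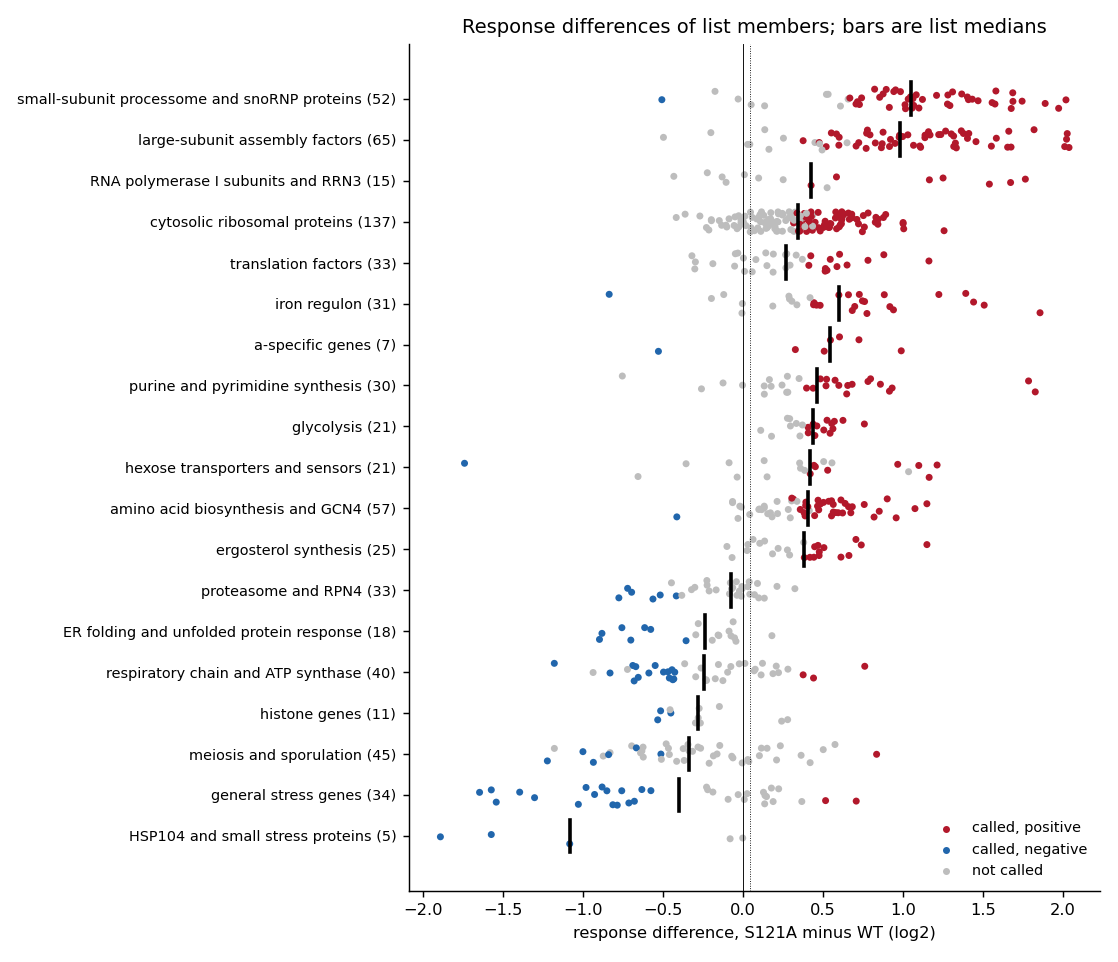
Response difference (log2, S121A minus WT) of each tested member of 19 gene lists, with the number tested in brackets; red and blue points passed the test, bars are list medians and the dotted line is the median of all genes, 0.04. Ribosome assembly lists lie to the right with medians of 1.05 and 0.98, and general stress genes and HSP104 with small stress proteins lie to the left with medians of -0.40 and -1.08.

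HSP26 had the largest negative difference among the named genes, and its gap lay before heat. It encodes a small heat shock protein that holds unfolding proteins. HSP26 (YBR072W, chromosome II, 382030 to 382674 in R64) had 10666, 9941 and 13160 CPM in heated S121A and 78.6, 73.3 and 78.4 CPM in unstressed S121A, against 11504, 10956 and 11349 CPM in heated WT and 21.0, 21.2 and 19.9 CPM in unstressed WT. The heated libraries overlapped and the unstressed ones did not. Its response was 7.20 in S121A and 9.09 in WT, a difference of -1.89 ± 0.14 (adjusted p = 5.38e-07). Without stress S121A exceeded WT by 1.89 (adjusted p = 2.8e-08), and under heat the gap did not pass (adjusted p = 0.992). HSP12, a membrane-associated stress protein gene, had 3520, 3051 and 4718 CPM in heated S121A and 151, 161 and 134 CPM in unstressed S121A, against 4051, 5820 and 5975 CPM in heated WT and 65.7, 68.5 and 76.2 CPM in unstressed WT. Its difference of -1.57 ± 0.22 thus combined a higher start with a lower end.

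HSP30 moved differently. It encodes a plasma membrane protein that restrains the proton pump, and had 17428, 19907 and 20598 CPM in heated S121A and 59.0, 52.1 and 61.0 CPM in unstressed S121A, against 14499, 10626 and 11853 CPM in heated WT and 17.7, 17.7 and 16.4 CPM in unstressed WT. S121A was higher at both ends, by 0.65 with heat and 1.73 without stress, and the difference was -1.08 ± 0.16. HSP30 lies on chromosome III, where S121A exceeded WT by a median of 0.70 with heat and 0.64 without stress over 164 genes; on the other nuclear chromosomes the median gaps were -0.07 to 0.19 and -0.06 to 0.11. The part of this in the values of HSP30 was not tested. HSP104, which encodes the disaggregase, and the small heat shock protein gene HSP42 are the remaining members of that list and differed by -0.08 ± 0.12 and -0.00 ± 0.16, neither of which passed.

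Calls among the other chaperone lists were mostly negative. Of 12 Hsp90 and co-chaperone genes 5 had a negative difference (median -0.18). CPR6, a co-chaperone gene, had 3188, 3150 and 3462 CPM in heated S121A and 211, 225 and 199 CPM in unstressed S121A, against 3475, 3982 and 3998 CPM in heated WT and 151, 151 and 156 CPM in unstressed WT, a difference of -0.70 ± 0.11. CDC37, which encodes the kinase-loading co-chaperone, differed by -0.50 ± 0.14, and its call held in 7 of the 12 fits with a library left out. HSP82 and HSC82, the Hsp90 paralogs, were named after their values were seen and differed by -0.44 ± 0.11 and -0.32 ± 0.11; the call of HSC82 held in 3 of the 12 fits with a library left out. Of 15 Hsp40s and other partners 5 were negative. Among them BTN2, which encodes a sorting factor for misfolded proteins, had 1373, 1314 and 1331 CPM in heated S121A and 41.7, 42.4 and 39.2 CPM in unstressed S121A, against 1512, 1935 and 2072 CPM in heated WT and 20.2, 18.2 and 22.1 CPM in unstressed WT, a difference of -1.49 ± 0.15. Of 11 mitochondrial chaperone genes 1 was called, HSP60 at 0.37 ± 0.12, and that call held in 4 of the 12 fits with a library left out.

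Among genes for folding in the endoplasmic reticulum (ER) the calls were all negative. Of 18 such genes 7 had a negative difference and none a positive one (median -0.24), and S121A was lower than WT under heat for 12. SIL1, a nucleotide exchange factor gene of the ER Hsp70, had 50.5, 50.8 and 53.7 CPM in heated S121A and 39.1, 41.8 and 38.0 CPM in unstressed S121A, against 99.8, 102.5 and 106.0 CPM in heated WT and 40.9, 41.8 and 45.3 CPM in unstressed WT. The unstressed groups overlapped and the heated ones did not, for a difference of -0.88 ± 0.09 (adjusted p = 1.15e-05). JEM1, an ER J-protein gene, differed by -0.76 ± 0.11, with 26.8, 27.9 and 30.9 CPM in heated S121A and 49.5, 48.4 and 51.0 CPM in heated WT. DER1, which acts in ER-associated degradation, differed by -0.90 ± 0.16. Of 33 proteasome genes 6 were negative and none positive (median -0.07), among them the lid subunit genes RPN5 at -0.72 ± 0.18 and RPN8 at -0.78 ± 0.21, whose call held in 9 of the 12 fits with a library left out.

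General stress genes had mostly negative calls, with gaps at either end. Of 34 genes of this kind 17 had a negative and 2 a positive difference (median -0.40), S121A was higher than WT without stress for 18 and lower than WT under heat for 10. ALD3, an aldehyde dehydrogenase gene, had 2512, 2324 and 2781 CPM in heated S121A and 33.2, 34.0 and 33.5 CPM in unstressed S121A, against 4031, 3670 and 3573 CPM in heated WT and 19.9, 19.3 and 21.1 CPM in unstressed WT. The heated values were all lower in S121A and the unstressed values all higher, for a difference of -1.30 ± 0.12. NQM1, a transaldolase paralog gene, differed by -1.40 ± 0.12, FMP16, a mitochondrial protein gene, by -1.54 ± 0.12, and SIP18, a hydrophilin gene of low level, by -1.65 ± 0.30. PGM2, which encodes phosphoglucomutase, and YGP1, a secreted glycoprotein gene, were the 2 positive members. They differed by 0.52 ± 0.12 and 0.71 ± 0.14 and were lower in S121A without stress, and they were named after their values were seen.

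Outside the stress lists the 12 largest negative differences among the named genes held HXT5, YPT53, ROQ1, EGO4 and YNL194C. HXT5 encodes a hexose transporter made in slow growth, and had 1455, 1562 and 1756 CPM in heated S121A and 18.7, 18.1 and 19.0 CPM in unstressed S121A, against 2097, 1543 and 1690 CPM in heated WT and 6.56, 6.17 and 5.86 CPM in unstressed WT. Only the unstressed groups were apart, and the difference was -1.74 ± 0.16. YPT53, an endosomal Rab gene, differed by -1.63 ± 0.32. ROQ1, whose product redirects a ubiquitin ligase in stress, differed by -1.38 ± 0.19 and YNL194C, which encodes a membrane protein, by -1.30 ± 0.18. EGO4 had 400, 360 and 433 CPM in heated S121A and 8.42, 9.29 and 10.1 CPM in unstressed S121A, against 535, 816 and 753 CPM in heated WT and 6.32, 5.32 and 7.70 CPM in unstressed WT. Its difference was -1.34 ± 0.21, with gaps of -0.82 with heat and 0.52 without stress.

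The promoter of HSP26, shown for contrast with those above, holds none of the searched motifs in its 300 bases, which says only that these letters are not in the window. Of the named genes next in size, HXT5 holds 1 TTCNNGAA match in its window and SIP18 holds none of the motifs. The HSP26 promoter is at chrII:381730-381959 on the + strand of R64, and the stretch from 300 to 71 bases before the start reads as follows.
HSP26: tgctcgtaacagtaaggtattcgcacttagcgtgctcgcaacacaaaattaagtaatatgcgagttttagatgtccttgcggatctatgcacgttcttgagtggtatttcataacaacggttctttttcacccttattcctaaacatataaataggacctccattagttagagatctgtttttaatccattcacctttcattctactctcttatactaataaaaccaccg

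Over the genes with a negative difference, 142 of 405 windows (35.1%) held CCCCT or its reverse, against 144 of 877 (16.4%) with a positive difference and 1312 of 5839 (22.5%) in all. The heat shock element core was in 83 of the 405 (20.5%), 204 of the 877 (23.3%) and 1318 of the 5839 (22.6%).

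Sugar uptake and glycolysis genes had mostly positive calls. Of 21 hexose transporter and sensor genes 8 had a positive difference (median 0.42), S121A was higher under heat for 14, and HXT5 was the single negative one. HXT2, a high-affinity transporter gene, had 3681, 4084 and 3654 CPM in heated S121A and 224, 207 and 202 CPM in unstressed S121A, against 2254, 1641 and 1911 CPM in heated WT and 247, 261 and 238 CPM in unstressed WT, a difference of 1.21 ± 0.14. HXT3, a low-affinity transporter gene, had 976, 1116 and 990 CPM in heated S121A and 1062, 955 and 1006 CPM in unstressed S121A, against 639, 477 and 538 CPM in heated WT and 1210, 1251 and 1173 CPM in unstressed WT. The S121A groups overlapped each other and the WT groups did not, and the difference was 1.16 ± 0.14. The HXT genes are close paralogs, so reads may be shared. Of 21 glycolysis genes 13 were positive and none negative (median 0.44), and S121A was lower without stress for 15. HXK1, which encodes a hexokinase, differed by 0.76 ± 0.13 and was lower in S121A without stress by -0.52.

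Glucose-repressed genes and their regulators also leaned to positive calls. Of 29 such genes 9 were positive and none negative (median 0.25), with 6 positive and 2 negative under library totals alone, and S121A was higher under heat for 18. SUC2, the invertase gene, had 1334, 1384 and 1453 CPM in heated S121A and 117, 103 and 105 CPM in unstressed S121A, against 844, 619 and 694 CPM in heated WT and 142, 136 and 129 CPM in unstressed WT, a difference of 1.28 ± 0.14. MIG2, a repressor gene of SUC2, differed by 1.52 ± 0.17, so the invertase gene and a repressor gene of it shared the direction. Of 21 tricarboxylic acid cycle genes 7 were positive and none negative (median 0.28). The respiratory chain went the other way: of 40 genes 15 were negative and 3 positive (median -0.25). Its lowest value was CYB2, the lactate dehydrogenase gene, with 94.1, 86.5 and 104.9 CPM in heated S121A and 6.55, 6.22 and 5.89 CPM in unstressed S121A, against 170, 165 and 162 CPM in heated WT and 4.63, 4.84 and 4.85 CPM in unstressed WT, a difference of -1.18 ± 0.12.

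Calls in iron genes were mostly positive. The iron regulon, driven by the factor Aft1 when iron is scarce, had 20 positive and 1 negative difference among 31 genes (median 0.60), and S121A was lower than WT without stress for 17. SIT1, a siderophore transporter gene, had 22.9, 27.1 and 23.2 CPM in heated S121A and 65.1, 65.3 and 72.1 CPM in unstressed S121A, against 18.3, 13.5 and 15.1 CPM in heated WT and 155, 169 and 145 CPM in unstressed WT. S121A was lower before heat and higher after it, for a difference of 1.86 ± 0.15 (adjusted p = 1.01e-06). FET3, the ferroxidase gene of high-affinity uptake, had 198, 192 and 214 CPM in heated S121A and 321, 291 and 302 CPM in unstressed S121A, against 219, 160 and 180 CPM in heated WT and 817, 760 and 724 CPM in unstressed WT. Only the unstressed groups were apart, and the difference was 1.44 ± 0.14. FTR1, the permease gene paired with FET3, differed by 1.51 ± 0.14.

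Biosynthetic gene lists had mostly positive calls. Of 57 amino acid synthesis genes 35 were positive and 1 negative (median 0.41), with LEU9 at 1.15 ± 0.10 and ILV3 at 1.08 ± 0.11 in branched-chain synthesis. Of 31 methionine and sulfur genes 12 were positive and 1 negative (median 0.24), and MET6, the methionine synthase gene, differed by 1.23 ± 0.13. Of 19 amino acid permease genes 10 were positive and none negative (median 0.42). Of 30 purine and pyrimidine genes 17 were positive and none negative (median 0.46). AAH1, the adenine deaminase gene, had 4.30, 4.58 and 4.38 CPM in heated S121A and 170, 164 and 177 CPM in unstressed S121A, against 1.19, 0.939 and 1.07 CPM in heated WT and 142, 144 and 137 CPM in unstressed WT, a difference of 1.79 ± 0.13. Of 25 ergosterol genes 13 were positive and none negative (median 0.38), and ERG3, the sterol desaturase gene, differed by 1.15 ± 0.13.

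Cell identity and cell surface genes gave smaller groups. Of 7 a-specific genes, expressed in MATa cells for mating, 6 were positive and 1 negative (median 0.55), with 4 positive and 1 negative under library totals alone. The calls of STE2 and STE6 held in 2 of the 12 fits with a library left out. The negative one is ASG7 at -0.53 ± 0.14, named after its value was seen, and its call held in all 12. ASG7 rose with heat, by 0.78 in S121A and 1.31 in WT, while the other members fell in both genotypes. AGA2, an agglutinin subunit gene, differed by 0.99 ± 0.16 and the pheromone gene MFA1 by 0.72 ± 0.14. SCW10, a cell wall glucanase gene, differed by 1.42 ± 0.13, with 90.0, 98.8 and 96.9 CPM in heated S121A and 46.5, 34.9 and 43.2 CPM in heated WT. Of 46 cell wall genes 12 were positive and 1 negative; the median was 0.21, and -0.00 with library totals alone. FLO11, a flocculin gene, differed by 1.13 ± 0.15. NCA3, of the SUN family, was higher in S121A at both ends, by 2.17 with heat and 1.47 without stress, and its difference was 0.70 ± 0.15.

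Cell cycle genes gave calls in both directions. Of 37 G1/S genes 6 were positive and 2 negative (median -0.02), near the 14.0% and 6.45% of all genes. The positive calls were led by TOS6 at 1.27 ± 0.17 and the cyclin genes PCL1 at 1.04 ± 0.14 and CLN2 at 0.98 ± 0.14. Of 24 daughter and early G1 genes 6 were negative and none positive (median -0.14), and S121A was lower under heat for 13. PCL9, a cyclin gene of that phase, had 22.2, 21.4 and 17.3 CPM in heated S121A and 29.6, 30.4 and 31.7 CPM in unstressed S121A, against 32.1, 37.6 and 32.3 CPM in heated WT and 28.4, 27.2 and 27.1 CPM in unstressed WT, a difference of -0.89 ± 0.13. CDC6, a replication licensing gene, differed by -0.72 ± 0.13. In bulk RNA, fewer cells in a phase and less RNA per cell cannot be told apart. Of 25 G2/M genes 2 were positive and 1 negative, both below the shares over all genes. Among 11 histone genes 3 were negative and none positive: HTB1 at -0.53 ± 0.12, HHF1 at -0.52 ± 0.16 and HHF2 at -0.45 ± 0.15. HHF1 and HHF2 encode the same H4 protein, may share reads, and kept their calls in 4 and 3 of the 12 fits with a library left out.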

How the data were processed

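RNA counts were taken from a table of raw counts per gene that the authors deposited without normalization, 1 column per library, and 12 of its 18 columns entered here. The builds sacCer3 and R64 are given in the submitters' processing notes, as are the tools DESeq2 1.10.1, TopHat2 2.0.1 and featureCounts 1.4.6-p5. Per the labels' protocols the libraries came from a stranded mRNA kit read from paired ends. Whether strand was used in counting, and what was done with multiply mapped reads, was not given in the sources used here, so values of paralogs and overlapping genes are uncertain. Relative counts give shares of the RNA measured, not amounts per cell.

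From these counts, filterByExpr kept 6353 of 6746 features (those left out held 0.00193% of the counts), and 6025 features matched R64 by locus tag. Counts were scaled by TMM and fitted in edgeR 4.0.16 under R 4.3.3 with a robust quasi-likelihood model of 1 mean per group. The response difference is a contrast in that model. Unless another source is named, each adjusted p is from its two-sided test with Benjamini-Hochberg adjustment over all genes tested, called under 0.05, and each SE is from the same fit. CPM are TMM-normalised. The fit was checked on simulated counts. No 2 libraries held identical values. Promoter windows were read from R64 with Python 3.11.15, and motifs were only counted.

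Named genes are the 12 largest differences each way with a mean of at least 10 CPM in the highest group and a call in all 12 fits with a library left out, up to 3 called members per list at that level, all histone genes and the strain markers. The members and the 47 lists were chosen with earlier results of these data known, and a few wrong list entries were removed later, so a list is given by counts and a median with no test. Alternatives were library totals alone, RLE factors, DESeq2 1.42.0, no filter, all 18 libraries, a replicate block and leaving out each library. Groups of 3 against 3 limit precision, and counting floors cover counting error only, since duplicate molecules cannot be recognised in counts.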

Additional observations from a re-analysis of the deposited data

Results flagged for a closer look

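Each result here was picked because the effect of heat differed between S121A and WT by the test of the difference itself. Over all genes this was so for 892 positive and 410 negative response differences. Among the genes named as largest, the positive values (log2) were 2.91 for HCA4, 2.04 for ERB1, 2.03 for SYO1, 2.02 for YTM1, 2.02 for UTP14, 2.01 for DRS1, 1.97 for ROK1, 1.90 for LTV1, 1.89 for RRP5, 1.86 for SIT1, 1.83 for URA7 and 1.82 for NOP13. In all 12 the heated S121A level was above the heated WT level. The negative values were -1.89 for HSP26, -1.74 for HXT5, -1.65 for SIP18, -1.63 for YPT53, -1.57 for HSP12, -1.54 for FMP16, -1.49 for BTN2, -1.40 for NQM1, -1.38 for ROQ1, -1.34 for EGO4, -1.30 for ALD3 and -1.30 for YNL194C. In all 12 the unstressed S121A level was above the unstressed WT level. Groups of 3 libraries were not screened for single outlying values.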

How the results depend on the processing

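Counts of positive and negative response differences were 946 and 359 with RLE factors, 1114 and 471 with DESeq2, 866 and 401 without a filter, and 992 and 453 with all 18 libraries, each within 1.5 times of the 892 and 410 reported. With library totals alone they were 501 and 899, the median of heat-induced genes was -0.24 against -0.03, and that of heat-repressed genes 0.10 against 0.32; this scaling moves the median of all genes by more than 0.1. Leaving out 1 library gave 573 to 1447 positive and 196 to 929 negative calls, with the extremes without S121A no stress replicate 2 and without WT heat replicate 1. The medians then ran from -0.056 to 0.025 for induced and 0.290 to 0.325 for repressed genes. The cause was not tested. In each of these settings every call shared with the reported set had the same sign, 911 of 1302 with library totals alone and 767 to 1289 with a library left out. Over 149 named genes, 2485 alternative values kept their side of the threshold, 181 lost the call, 16 gained it and none reversed. Part of this tally was fixed by the choice of genes. The genes named as largest each way had to be called in every fit with a library left out. Their kept calls in those fits are therefore no test of robustness. List members in the tally were picked among called genes, apart from histone genes and strain markers.

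Whether replicate numbers mark paired libraries is not given in the labels and was not tested. Of 18 correlations between same-numbered libraries 8 exceeded 0.1 (-0.386 to 0.600), and 8 of 12 libraries correlated best with their own number. A fit with the number as a replicate block gave 976 positive and 454 negative calls. Of the 1302 calls, 1272 were also made under the block. ROK1 and SYO1, under 1 CPM in heated WT, had SEs of 0.28 and 0.20, against 0.12 for HCA4. HSP12, at a far higher level, had an SE between those of SYO1 and ROK1. The part of depth in the SEs was not tested.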

Other observations

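Several gene groups with mixed or small differences are described here. Of 13 glycogen genes 4 were positive and 1 negative; GSY1, a glycogen synthase gene, had 734, 708 and 852 CPM in heated S121A and 49.4, 44.4 and 43.1 CPM in unstressed S121A, against 759, 621 and 645 CPM in heated WT and 75.9, 74.5 and 80.7 CPM in unstressed WT, a difference of 0.94 ± 0.13. The list median was 0.13, and -0.09 with library totals alone. Of 7 trehalose genes 1 was positive, TSL1 at 0.39 ± 0.12, which lost its call with library totals alone and kept it in 5 of the 12 fits with a library left out; S121A was lower without stress for 5, and the median of 0.16 became -0.04 with library totals alone. Of 28 antioxidant genes 4 were negative and 1 positive, with the glutaredoxin gene GRX1 at -0.96 ± 0.21. Of 19 osmotic stress genes 6 were positive and 3 negative, with 2 and 4 under library totals alone. Of 13 ubiquitin and protein triage genes 1 was positive and 1 negative, UBI4, the polyubiquitin gene, at -0.43 ± 0.11, and of 19 stress transcription factor genes 1 was positive and 1 negative, with 1 and 7 under library totals alone.

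Of 12 zinc genes 3 were positive and 2 negative; ZPS1, a zinc-regulated secreted protein gene, was higher in S121A at both ends, by 0.68 with heat and 1.64 without stress, for a difference of -0.96 ± 0.13. Of 25 phosphate genes 7 were positive and 2 negative, with the transporter gene PHO90 at 1.43 ± 0.14. Of 45 tested meiosis genes, silent or low in dividing cells, 6 were negative and 1 positive, RIM4 at 0.84 ± 0.14, and S121A was higher without stress for 15. The 6 meiotic markers summed to 55.7 to 72.8 CPM in heated S121A and 41.2 to 44.5 CPM in unstressed S121A, against 61.8 to 72.7 CPM in heated WT and 34.2 to 35.7 CPM in unstressed WT. Of 33 mating genes 6 were positive and 3 negative, and of 7 tested alpha-specific genes 2 were negative. Of 27 DNA damage genes 1 was positive and 4 negative. Of 46 tested subtelomeric genes 8 were positive and none negative, and S121A was higher under heat for 26; these families share sequence, so their reads may be shared.

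Gene length moved with the calls. Of 240 genes of at most 300 bases, 4.58% were positive and 14.6% negative; of 2231 genes above 1000 and up to 2000 bases, 19.7% were positive and 5.20% negative; of 527 above 3000 bases, 12.9% were positive and 2.47% negative. The part of length in the differences was not tested. On chromosome III, where S121A exceeded WT at both ends, the median response difference was 0.13, and 22.0% of 164 genes were positive and 9.76% negative.

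The NaCl libraries (15 min in 0.4 M NaCl, 3 per genotype) give the same genes under another stress, against the same unstressed libraries, so the contrasts are not independent. In a fit of all 18 libraries, HCA4 had 11.3, 10.8 and 10.7 CPM in S121A under NaCl, against 3.08, 4.09 and 3.01 CPM in WT under NaCl. Its NaCl response difference was 1.52 ± 0.13, beside 2.92 for heat in that fit. HSP26 had -1.47 under NaCl and -1.89 under heat. BTN2 had 0.28 ± 0.15 under NaCl, which did not pass (adjusted p = 0.296), beside -1.48 under heat. HSP30 had 0.25 ± 0.14 under NaCl, which did not pass (adjusted p = 0.348), beside -1.08 under heat. Whether the heat and NaCl differences differ from each other was not tested.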
